A study of Mus musculus with 12 samples.

Results

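The livers of 2 mice after vertical sleeve gastrectomy (VSG) were compared by RNA sequencing with the livers of 4 mice that kept a whole stomach, 2 Control and 2 Sham mice. Genes were listed when both VSG mice lay above, or both lay below, every one of the other 4 mice. Of 9833 genes with an FPKM (fragments per kilobase of transcript, scaled to the size of the library) of 1 or more in 2 or more mice, 1201 were listed, 890 with VSG higher and 311 with VSG lower. The 6 RNA samples are from a series of 12 samples, the rest being libraries of open chromatin (FAIRE-seq) from livers of the same 3 groups. All mice were wild-type C57BL/6J males. Sham and VSG mice received a high-fat diet with 60% of its calories from fat from 8 weeks of age for 14 weeks, were divided at random, with body weight matched, between the operations, and were fed the same diet for 14 more weeks apart from 4 days of liquid diet after the operation. In VSG mice the lateral part of the stomach, about 80%, was removed, and in Sham mice the stomach was isolated and pressed with forceps. Control mice had chow for 28 weeks and no operation, so that they differed from VSG mice in diet as well as in surgery.

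Several of the genes with the widest separation encode proteins of iron and metal handling. Hepcidin, the product of Hamp, is a hormone made by hepatocytes that makes cells degrade the iron exporter ferroportin, and its transcription responds to iron through bone morphogenetic protein (BMP) and SMAD signalling and to inflammation through interleukin 6 and STAT3. Metallothioneins are small cysteine-rich proteins that bind zinc and copper, and their genes are switched on by the factor MTF1 at metal response elements. The liver also makes the acute phase proteins of plasma, bile acids from cholesterol, and the plasma lipoproteins.

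The promoters of the 4 lower genes with the highest levels among the widest gaps are shown because the FAIRE-seq files bear on them and because each pair lies side by side in the genome. Each is the 250 bases before the RefSeq start of the gene (RefSeq sequence, GRCm38.p6, gene strand), matched here to NCBIM37 (mm9). Capitals mark GGCGCC, the core of the BMP response element, TTCNNNGAA, the STAT motif, and TGCACNC or TGCGCNC, the 2 forms of the metal response element, each searched on both strands.
Hamp (chr7:31729049-31729298, minus strand): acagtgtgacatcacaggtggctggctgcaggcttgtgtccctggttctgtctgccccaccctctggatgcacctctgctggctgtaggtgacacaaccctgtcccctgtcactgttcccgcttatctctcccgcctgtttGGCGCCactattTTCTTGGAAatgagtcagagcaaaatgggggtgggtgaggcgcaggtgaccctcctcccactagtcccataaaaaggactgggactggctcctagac
Hamp2 (chr7:31709201-31709450, minus strand): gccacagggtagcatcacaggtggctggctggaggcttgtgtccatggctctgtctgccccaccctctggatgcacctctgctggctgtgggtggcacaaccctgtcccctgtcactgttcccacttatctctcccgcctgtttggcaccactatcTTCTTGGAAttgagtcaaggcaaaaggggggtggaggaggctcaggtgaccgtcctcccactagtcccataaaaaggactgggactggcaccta
Mt1 (chr8:96702739-96702988, plus strand): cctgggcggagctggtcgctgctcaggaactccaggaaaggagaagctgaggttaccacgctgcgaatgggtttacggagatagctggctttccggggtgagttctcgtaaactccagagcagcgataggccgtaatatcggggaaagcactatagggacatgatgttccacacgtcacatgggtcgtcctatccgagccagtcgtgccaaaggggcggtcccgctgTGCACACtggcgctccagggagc
Mt2 (chr8:96696268-96696517, plus strand): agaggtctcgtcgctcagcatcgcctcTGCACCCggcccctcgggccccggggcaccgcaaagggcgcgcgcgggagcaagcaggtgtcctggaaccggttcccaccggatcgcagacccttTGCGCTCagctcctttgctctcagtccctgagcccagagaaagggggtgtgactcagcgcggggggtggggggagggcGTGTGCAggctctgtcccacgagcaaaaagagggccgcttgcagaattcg

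The windows of Hamp and Hamp2 were identical at 227 of 253 aligned columns (89.7%). Both held a TTCTTGGAA, and GGCGCC was found in the window of Hamp and not in that of Hamp2. The same search was made in 32851 RefSeq promoter windows, each the 250 bases before the start, as in the windows shown. Of these, 9.59% held GGCGCC, 7.02% held TTCNNNGAA and 21.4% held either form of the metal response element. Among the windows of listed genes with VSG lower, these shares were 18.8%, 8.12% and 31.5%, against 16.5%, 5.86% and 29.2% for all genes tested. A match is a run of letters and not a measured binding site.

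The 6 libraries differed in depth. From the spacing of low FPKM values, and taking Control mouse 1 as 1, the relative depth was 0.833 in Control mouse 2, 0.676 and 1.17 in Sham, and 1.56 and 0.920 in VSG. The absolute number of reads is unknown. Pearson's r of log2(FPKM + 1) between mice of 1 group was 0.917 for Control, 0.862 for Sham and 0.889 for VSG, and between groups it was 0.850 to 0.892, a range that overlaps the values within groups. Transcripts of hepatocytes were abundant in every mouse, with Apoa1 at 6334 to 11117 FPKM and Ttr at 1011 to 4143 FPKM. Of the tested genes, 1572 (16.0%) were listed at an FPKM of 0 in 1 or more mice, including Hnf4a and Apob in Sham mouse 1. Since every hepatocyte uses these genes, a 0 in this table may not mean absence. Genes with a 0 that passed the test described below are given apart, while the gene lists may include genes with a 0.

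The listed genes were 12.2% of the genes tested, 9.05% with VSG higher and 3.16% with VSG lower. The shares of listed members in the gene lists below stand beside these shares of all genes. The median difference of all tested genes, VSG minus the mean of Control and Sham, was 0.13 on the log2(FPKM + 1) scale, and 65.6% of them had a positive difference. After quantile scaling this median was 0.01 and the listed genes were 459 higher (4.67%) and 555 lower (5.64%), and after upper quartile scaling they were 452 higher (4.6%) and 542 lower (5.51%). The share of listed genes with VSG higher thus went from 74.1% to 45.3% and 45.5%, and the excess of higher genes depends on the scaling. Under all 3 scalings 348 genes (3.54%) were listed as higher and 298 (3.03%) as lower.

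**Figure D1:**
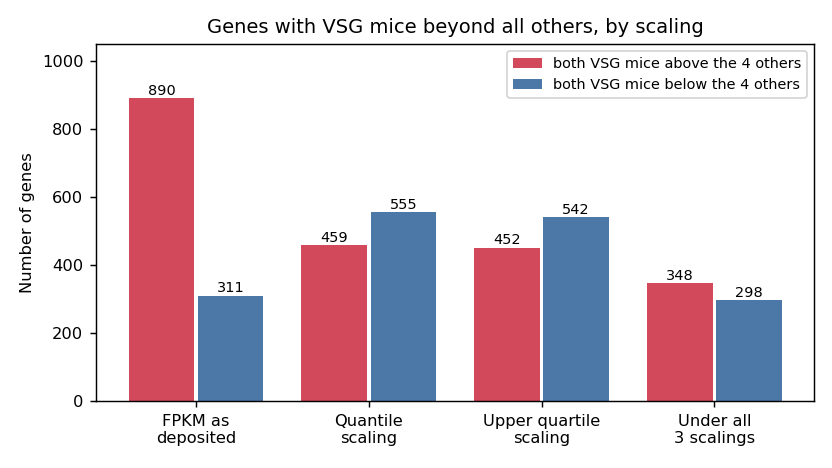
Bars give the number of genes, of 9833 tested, for which both VSG mice lay above (red) or below (blue) all 4 Control and Sham mice. Higher genes outnumber lower genes with FPKM as deposited (890 against 311), and lower genes outnumber higher genes after quantile scaling (459 higher, 555 lower).

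Most listed genes were separated by little. The gap, the distance on log2(FPKM + 1) between the nearest VSG mouse and the nearest of the other 4, had a median of 0.112 for higher and 0.151 for lower genes. It was 0.5 or more for 64 higher and 43 lower genes, and these were listed under all 3 scalings. Just inside the rule were Pex7, with VSG mouse 1 at 35.3 FPKM and Sham mouse 1 also at 35.3 FPKM, and Ccnd3, with VSG mouse 1 at 6.87 FPKM and Control mouse 1 at 6.88 FPKM. Just outside were Elp4 and Hsp90aa1, whose gaps were -0.000155 and -0.000666. Of the listed higher genes, 238 had both Sham mice above both Control mice, 143 had both below, and 509 had Sham and Control mice that overlapped. Of the listed lower genes, the same numbers were 48, 88 and 175. For comparison, of all 9833 genes tested, 2495 had both Sham mice above both Control mice and 2017 had both below. The listed genes are a description, chosen by the values given here. An exact permutation test of 2 mice against 4, with the smaller tail doubled for a two-sided p, cannot go below 0.133.

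In a limma fit across all 9833 genes, 14 genes passed a false discovery rate (FDR) of 10%, 5 higher (0.0508%) and 9 lower (0.0915%). The count at an unadjusted p under 0.05 was 377 higher (3.83%) and 207 lower (2.11%). Of the 14 genes, 13 had an FPKM of 0 in 1 or more mice, and Naca was the exception. With genes restricted to those above 0 in all 6 mice, limma called 0 genes, the smallest adjusted p was 0.373, and 537 genes had an unadjusted p under 0.05. The call of Naca was thus also lost there, and over 13 other alternatives its adjusted p in limma was 0.0501 to 0.476, with 3 of them under the threshold. No gene was called when Control mouse 1, Control mouse 2, VSG mouse 1 or VSG mouse 2 was left out.

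Hepcidin transcripts were far lower in both VSG mice. Hamp (NM_032541, mm9 chromosome 7, 31727390 to 31729036, minus strand) was at 2052 and 2407 FPKM in Control, 1253 and 718 FPKM in Sham, and 99.7 and 4.74 FPKM in VSG mice. Its paralog Hamp2 was at 575 and 542 FPKM in Control, 272 and 160 FPKM in Sham, and 23.0 and 1.56 FPKM in VSG mice. For both genes VSG mouse 2 was lowest, the Sham mice lay between Control and VSG, and the lowest Sham mouse was several times above the higher VSG mouse. On the log2(FPKM + 1) scale Hamp differed by -5.92 ± 1.17 (SE of limma, adjusted p = 0.526) and Hamp2 by -5.45 ± 0.92 (adjusted p = 0.414), so that neither passed the test, although the mean of the other 4 mice was 30.8 and 31.5 times that of the VSG mice. The 2 VSG mice themselves were far apart, and without VSG mouse 2 the difference of Hamp was -3.85. Because the genes are close copies, reads may have been shared between them and their values are not independent.

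Of 14 iron handling genes tested, 2 were listed as lower (14.3%), Hamp and Hamp2, and 2 as higher (14.3%), Tfrc and Smad6. None was called by limma. Tfrc, the transferrin receptor through which cells take up iron, was at 2.56 and 1.76 FPKM in Control, 2.54 and 2.99 FPKM in Sham, and 7.08 and 9.66 FPKM in VSG mice, a difference of 1.43 ± 0.23 (limma adjusted p = 0.401). The VSG mice lay above all others, as the rule requires, and the Control and Sham mice overlapped. Smad6, an inhibitor of BMP signalling, was separated by a gap of only 0.10, between 1.12 FPKM in Control mouse 1 and 1.27 FPKM in VSG mouse 1, and was not listed under all 3 scalings. The BMP target Id1 was at 4.24 and 3.04 FPKM in VSG mice and 3.71 to 8.55 FPKM in the others. Overlap was also seen for the ferritin chains Fth1 and Ftl1, for Tfr2 and Hfe, which take part in iron sensing, and for ferroportin (Slc40a1), at 6.74 and 22.9 FPKM in VSG and 8.47 to 17.6 FPKM in the other mice. Scara5, a receptor for ferritin that was singled out after its values were seen, was at 20.3 and 23.4 FPKM in Control, 8.05 and 18.5 FPKM in Sham, and 5.37 and 1.76 FPKM in VSG mice.

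**Figure D2:**
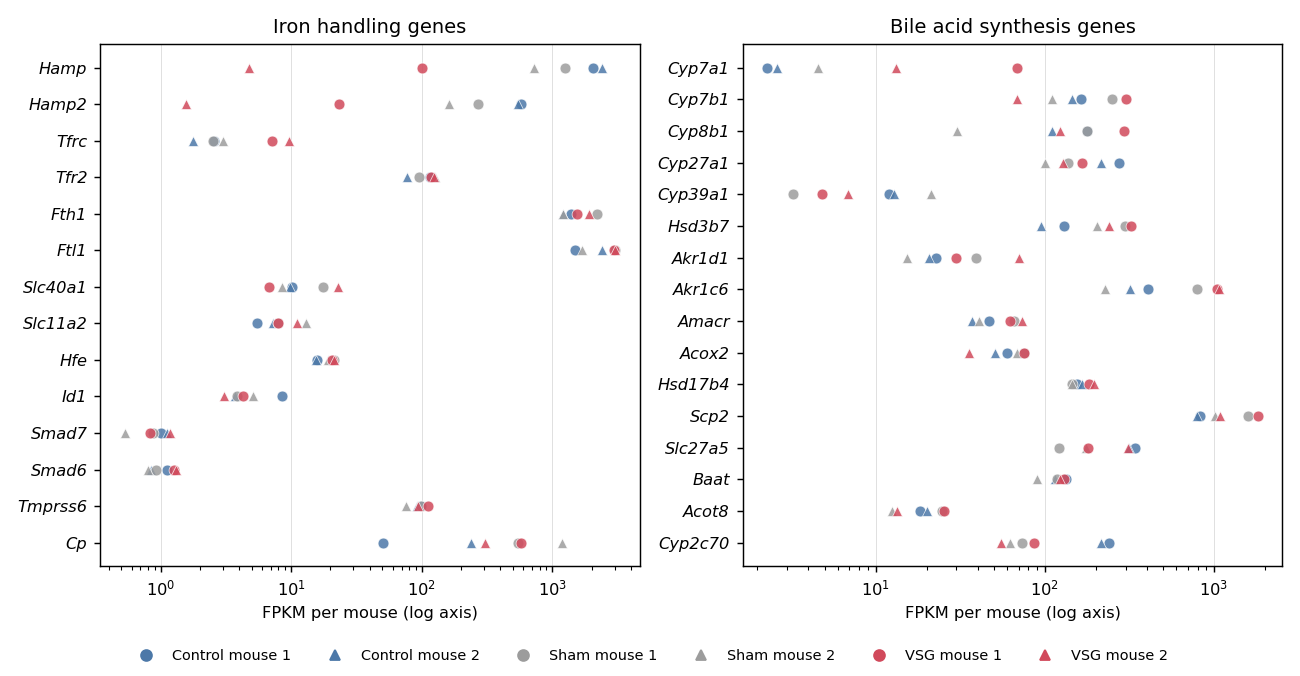
Points are the FPKM of each mouse on a log axis for the 14 iron handling genes (left) and 16 bile acid synthesis genes (right) tested, with groups by colour and mouse numbers by shape, and values of 0 are not drawn. The VSG points of Hamp and Hamp2 lie far to the left of all others (99.7 and 4.74 FPKM for Hamp), while those of the ferritins Fth1 and Ftl1 lie among them.

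The metallothionein genes Mt1 and Mt2 were lower in both VSG mice. Mt1 was at 4506 and 5629 FPKM in Control, 2826 and 3221 FPKM in Sham, and 870 and 555 FPKM in VSG mice. Mt2 was at 2675 and 4196 FPKM in Control, 1861 and 3699 FPKM in Sham, and 378 and 307 FPKM in VSG mice. The VSG mice were close to each other for both genes, and the lowest of the other mice was several times higher. The log2 differences were -2.49 ± 0.31 for Mt1 and -3.12 ± 0.40 for Mt2 (limma adjusted p = 0.252 for both). Of 13 metallothionein and Nrf2 target genes tested, Mt1, Mt2 and Hmox1 were listed as lower (23.1%) and Gclc as higher (7.69%). Hmox1, the heme oxygenase that frees iron from heme, was at 11.4 and 16.4 FPKM in VSG and 20.5 to 33.7 FPKM in the other mice. Gclc, the catalytic subunit of the first enzyme of glutathione synthesis, was at 47.4 and 117 FPKM in VSG and 14.3 to 45.7 FPKM in the others, and was not listed under all 3 scalings. The median difference of the list was 0.15 beside 0.13 for all genes, and it came to -0.20 without Sham mouse 2 and -0.17 without VSG mouse 2, against 0.58 without Sham mouse 1 and 0.54 without VSG mouse 1.

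**Figure D3:**
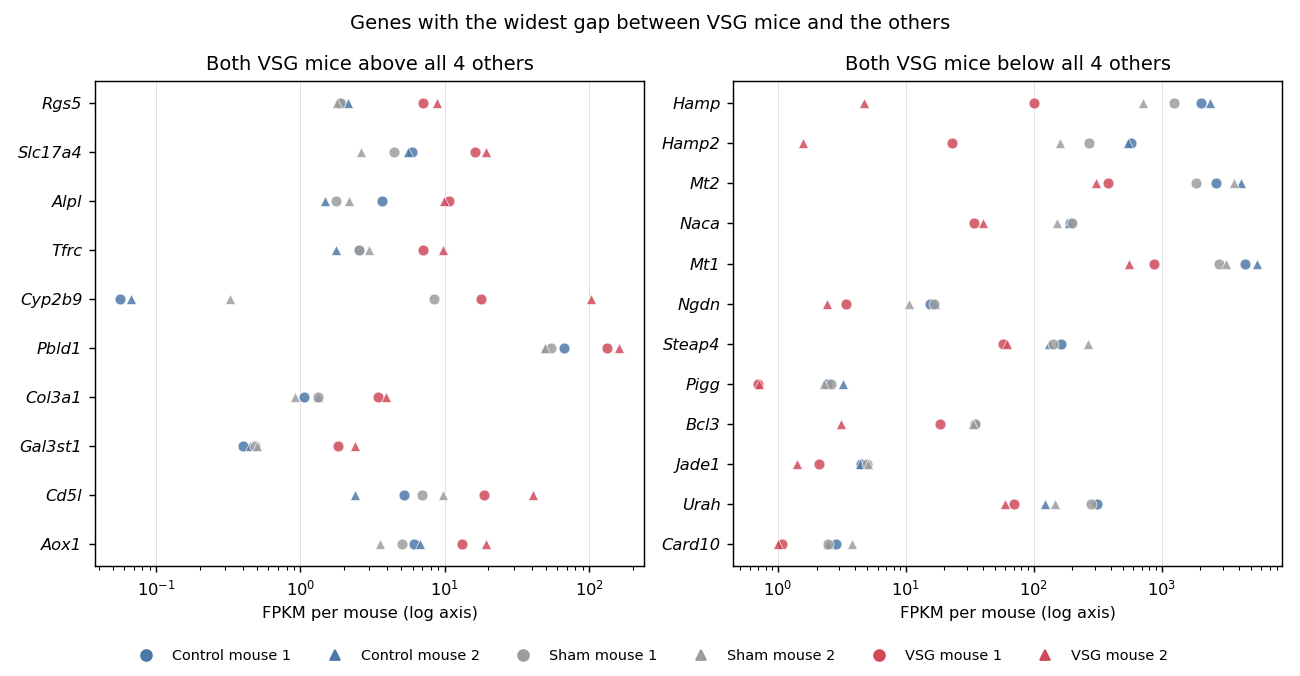
Points are FPKM per mouse on a log axis for the genes with the widest gap, among genes above 0 in all 6 mice, with VSG above (left, 10 genes) and below (right, 12 genes). The genes Tff1 and Gm15318 are left out, and the VSG points of Mt1 and Mt2 lie at 307 to 870 FPKM against 1861 FPKM or more in the other mice.

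Erythroid transcripts were higher in both VSG mice, and most in VSG mouse 2. All 4 erythroid markers tested were listed as higher (100.0% against 9.05% of all genes). Their median difference was 1.77, beside 0.13 for all genes. It came to 0.68 with VSG mouse 2 left out and 2.86 with VSG mouse 1 left out. The hemoglobin gene Hba-a1 was at 256 and 197 FPKM in Control, 277 and 117 FPKM in Sham, and 329 and 1306 FPKM in VSG mice, and Hbb-b1 and Hbb-b2 had the same order. Alas2, the erythroid enzyme that starts heme synthesis, was at 51.6 and 55.9 FPKM in VSG mice and 11.3 to 49.5 FPKM in the others, and was not listed under all 3 scalings. Tfrc is also abundant in erythroid precursors, and the part of these cells in its level was not tested. Of 15 Kupffer cell markers, Cd5l and Folr2 were listed as higher (13.3% against 9.05% of all genes), and Folr2 was not listed under all 3 scalings. The median difference of the list was 1.04. Leaving out VSG mouse 2 gave 0.30 and leaving out VSG mouse 1 gave 1.87. VSG mouse 2 lay above all 4 other mice for 12 of the 15 markers and VSG mouse 1 for 2, so that the list as a whole stood apart in 1 VSG mouse. Cd5l, a protein secreted by macrophages, was at 5.18 and 2.37 FPKM in Control, 6.96 and 9.69 FPKM in Sham, and 18.6 and 40.8 FPKM in VSG mice (difference 2.14 ± 0.43, limma adjusted p = 0.533). Clec4f, a defining Kupffer cell marker, was at 6.31 FPKM in VSG mouse 1, inside the range of the others (2.11 to 8.75 FPKM), and at 48.8 FPKM in VSG mouse 2. In whole liver, more or fewer cells of a type and more or less RNA in each cell cannot be told apart.

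A few markers of vessel and matrix cells were listed. Rgs5, a G protein regulator known as a pericyte marker, had the widest gap of the higher genes above 0 in all mice, at 1.92 and 2.14 FPKM in Control, 1.89 and 1.79 FPKM in Sham, and 7.06 and 8.78 FPKM in VSG mice (difference 1.60 ± 0.20, limma adjusted p = 0.252). The 4 mice with a whole stomach were within a narrow range for this gene. Col3a1, a fibrillar collagen chain, was at 0.912 to 1.33 FPKM in these 4 and at 3.42 and 3.92 FPKM in VSG mice. Lrat, the enzyme of retinyl ester storage in stellate cells, was at 1.42 and 2.18 FPKM in VSG and 0.659 to 1.29 FPKM in the other mice. Of 12 stellate and matrix markers, Col3a1 and Lrat were listed as higher (16.7%), the latter not under all 3 scalings. The list of 12 sinusoidal endothelial markers, which counts Rgs5 although pericytes express it, had Rgs5 and Fcgr2b as higher (16.7%), the latter with a gap of 0.07 and not under all 3 scalings. Its median was 0.12, near that of all genes, and Bmp2, one of its members, was at 0.233 and 0.379 FPKM in VSG and 0.269 to 2.74 FPKM in the other mice. No lymphocyte marker passed the filter, and no neutrophil, cholangiocyte, pancreas, adipose or muscle marker was listed.

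Some acute phase transcripts were among the listed lower genes. Of 17 acute phase genes tested, 5 were listed as lower (29.4% against 3.16% of all genes) and 0 as higher, namely Hamp, Steap4, Serpina3n, Fgg and Socs3. The median difference of the list was -0.33. It was -1.45 against Sham and 0.28 against Control, so that the list as a whole did not lie below both groups. Against all 4 it was -0.05 without Sham mouse 2 and -0.997 without VSG mouse 1. Steap4, a reductase of iron and copper, was at 162 and 132 FPKM in Control, 140 and 266 FPKM in Sham, and 58.0 and 61.3 FPKM in VSG mice. Serpina3n, a protease inhibitor of plasma, was at 1423 and 1443 FPKM in Control, 929 and 2191 FPKM in Sham, and 725 and 378 FPKM in VSG mice. Fgg, the gamma chain of fibrinogen, was at 2897 and 1719 FPKM in VSG and 3660 to 6986 FPKM in the other mice. For Serpina3n and Fgg the 2 Sham mice lay on either side of the Control mice. Socs3, the feedback inhibitor of interleukin 6 signalling, was at 10.8 and 3.79 FPKM in VSG and 13.4 to 31.8 FPKM in the others. The listing did not extend to Lcn2, singled out after its values were seen, which was at 2069 and 214 FPKM in VSG mice and ranged from 108 to 5279 FPKM in the others.

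Bcl3 and Card10 were among the lower genes with the widest gaps. Bcl3, an atypical member of the I-kappaB family, was at 33.8 to 34.8 FPKM in all 4 other mice and at 18.3 and 3.10 FPKM in VSG mice. Card10, an adaptor in NF-kappaB signalling, was at 1.07 and 0.992 FPKM in VSG and 2.46 to 3.76 FPKM in the others. Cxcl1, a neutrophil chemokine, was the 1 listed of 13 chemokines (7.69%), of which 8 had a positive difference, and was at 20.7 and 16.5 FPKM in VSG and 27.3 to 120 FPKM in the others. None of these passed limma. Cd14 and Slpi, genes of innate immunity named in the study, were not listed, because the VSG mice lay at or above the Control mice while both lay below the Sham mice (Cd14 was at 2.82 and 2.45 FPKM in VSG, 2.25 and 1.31 FPKM in Control, 8.13 and 49.0 FPKM in Sham).

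Some genes of bile acid synthesis and uptake were listed as higher. Cyp7a1, the rate-limiting enzyme of the classical pathway, was at 2.28 and 2.60 FPKM in Control, 0 and 4.58 FPKM in Sham, and 68.3 and 13.2 FPKM in VSG mice (difference 3.46 ± 0.94, limma adjusted p = 0.733). The lower VSG mouse was still above the highest of the others, though the VSG mice were far apart. Akr1c6, a hydroxysteroid dehydrogenase, was at 1037 and 1075 FPKM in VSG and 228 to 790 FPKM in the other mice. Of 16 bile acid synthesis genes, 3 were listed as higher (18.8%) and 0 as lower, with a median difference of 0.23 that was 0.04 after quantile scaling. The third, Hsd17b4, was not listed under all 3 scalings, and 5 of the 16 had a negative difference. Cyp8b1, Cyp27a1 and Cyp7b1, the other main hydroxylases, overlapped. Of 15 transport and FXR axis genes, the uptake transporters Slc10a1, Slco1a4 and Slco1b2 were listed as higher (20.0%), with a list median of 0.49 (0.38 after quantile scaling, 0.96 without VSG mouse 1). Slco1b2 was at 354 and 377 FPKM in VSG and 186 to 248 FPKM in the other mice, and Slc10a1 at 413 and 277 FPKM in VSG and 184 to 264 FPKM in the others, the latter not listed under all 3 scalings.

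Among genes of drug metabolism, Cyp2b9 had the largest difference of the listed higher genes above 0 in all mice. This cytochrome P450, which in mice is more abundant in female liver, was at 0.0562 and 0.0675 FPKM in Control, 8.43 and 0.324 FPKM in Sham, and 17.9 and 103 FPKM in VSG mice (difference 4.52 ± 1.04, limma adjusted p = 0.627). The Sham mice were far apart, and Sham mouse 1 lay within a few-fold of VSG mouse 1. Cyp3a25 was listed at 0 in both Control mice and was at 60.5 and 35.1 FPKM in Sham and 114 and 724 FPKM in VSG mice. The study reports this gene as lower in Sham than in Control, the opposite order. The 0 in Control may therefore not mean absence, and the listing of Cyp3a25 rests on it in part. Of 25 CAR and PXR targets, Cyp2b9, Cyp3a25 and Slco1a4 were listed as higher (12.0% against 9.05% of all genes), and 0 as lower. The list median was 0.42, but 1.84 against Sham and -0.42 against Control, and -0.30 without VSG mouse 2. VSG mouse 1 lay above all 4 other mice for 3 of the 25 and VSG mouse 2 for 12. A negative difference was found for 5 of the 25. Among them was Cyp2b10, at 8.46 and 8.81 FPKM in Control, 0.0389 and 0.00900 FPKM in Sham, and 0.135 and 0 FPKM in VSG mice. Cyp2c29, Cyp2c50, Cyp2c55, Cyp3a11 and Cyp3a59, other P450 genes named in the study, were not listed, since VSG mice lay within the range of the other 4 in 1 or both mice. Reads may be divided among close copies in these P450 families. Aox1, an aldehyde oxidase, was at 13.0 and 19.2 FPKM in VSG and 3.53 to 6.75 FPKM in the other mice, and its neighbour Aox3 was also listed as higher.

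Lipid genes were divided. Of 21 cholesterol synthesis and uptake genes, Idi1, an isomerase of the isoprenoid pathway, was listed as lower (4.76%) and 0 as higher. The median difference was -0.57. With VSG mouse 2 left out it came to 0.43, and with VSG mouse 1 left out to -1.12. The VSG mice lay on opposite sides for many of these genes, VSG mouse 1 above all 4 other mice for 10 of the 21 and VSG mouse 2 below all 4 for 15. Idi1 was at 22.9 and 6.01 FPKM in VSG and 32.9 to 71.3 FPKM in the other mice. VSG mouse 2 was lowest. It was also the lowest mouse for Sqle, at 1.21 FPKM against 14.5 to 40.1 FPKM in the other 5 mice, while VSG mouse 1 was inside the range there. Angptl4 and Angptl8, secreted regulators of lipoprotein lipase, lay on opposite sides. Angptl4 was at 68.4 and 57.5 FPKM in VSG and 82.3 to 175 FPKM in the other mice, and Angptl8 at 94.9 and 46.7 FPKM in VSG and 7.56 to 34.5 FPKM in the others. Of 15 PPAR gamma and lipid droplet genes, Lpl was listed as higher and Mogat1 as lower. Lpl was at 3.40 and 5.05 FPKM in VSG and 2.03 to 2.69 FPKM in the others. Apoa5, an apolipoprotein that lowers plasma triglyceride, was at 434 and 352 FPKM in VSG and 468 to 743 FPKM in the others. It was the 1 listed of 16 apolipoprotein genes and was not listed under all 3 scalings.

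Of 30 PPAR alpha and fatty acid oxidation genes, Acadvl and Hadhb were listed as higher (6.67%) and Angptl4 as lower (3.33%), against 9.05% and 3.16% of all genes. Hadhb was at 0 in Control mouse 2, and neither Acadvl nor Hadhb was listed under all 3 scalings. Of 20 fatty acid and triglyceride synthesis genes, Pklr and Agpat2 were listed as higher and none as lower. The share listed as higher was near the 9.05% of all genes. Agpat2 had a gap of only 0.03 and was not listed under all 3 scalings. Pklr, the liver pyruvate kinase, was at 117 and 74.1 FPKM in VSG and 30.2 to 63.2 FPKM in the other mice. Mogat1, which makes diacylglycerol, was listed at 0 in both VSG mice and was at 0.422 to 5.99 FPKM in the others. The lipid droplet regulator Pparg was not listed, with VSG mice at 6.75 and 8.73 FPKM and Sham mice at 11.1 and 2.58 FPKM.

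Several genes of glucose handling and of the growth factor axis were listed as higher. Of 19 glucose production and insulin signalling genes, 5 were listed as higher (26.3% against 9.05% of all genes) and 0 as lower, with a median difference of 0.16 (0.10 after quantile scaling, 0.03 without VSG mouse 2, 0.53 without VSG mouse 1) beside 0.13 for all genes. A positive difference was found for 13 of the 19, against 65.6% of all genes. Ppp1r3c, a subunit that directs protein phosphatase to glycogen, was at 4.21 and 1.80 FPKM in Control, 7.24 and 4.96 FPKM in Sham, and 13.5 and 11.9 FPKM in VSG mice. Slc2a2, the glucose transporter of hepatocytes, was at 56.1 and 76.9 FPKM in VSG and 34.2 to 45.7 FPKM in the others. The remaining 3, Pcx, Gckr and Irs1, had gaps of 0.11 or less and were not listed under all 3 scalings. Of 20 growth factor and hepatokine genes, Igfals, Angptl6 and Angptl8 were listed as higher and Angptl4 as lower, with a median difference of 0.30 (0.08 after quantile scaling, 0.14 without Sham mouse 1, 0.50 without Sham mouse 2) and 14 positive differences. Igfals, which holds insulin-like growth factors in a complex in plasma, was at 76.1 and 65.2 FPKM in VSG and 35.3 to 47.1 FPKM in the other mice (difference 0.77 ± 0.18, limma adjusted p = 0.638).

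Genes of the endoplasmic reticulum stress response were among the listed lower genes. Of 24 tested, Hsp90b1, Dnajc3, Creld2, Edem1 and Chac1 were listed as lower (20.8% against 3.16% of all genes) and 0 as higher. The list median was -0.37 (-0.54 after quantile scaling, -0.14 without VSG mouse 2, -0.57 without VSG mouse 1), beside 0.13 for all genes. Hsp90b1, the chaperone GRP94, was at 219 and 182 FPKM in VSG and 247 to 326 FPKM in the other mice. Chac1, a glutathione-degrading enzyme, was at 3.81 and 2.97 FPKM in VSG and 5.08 to 16.0 FPKM in the others. All 5 were listed under the 3 scalings, and the widest gap was 0.34, for Chac1.

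Of 19 immediate early genes, 3 were listed as higher (15.8%) and 4 as lower (21.1%), against 9.05% and 3.16% of all genes. The 3 higher genes, Fos, Klf2 and Zfp36, were not listed under all 3 scalings. VSG mouse 1 lay above all 4 other mice for 11 of the 19 and below them for 4. For VSG mouse 2 these counts were 3 and 6. The list median was 0.09, with 0.91 without VSG mouse 2 and -0.16 without VSG mouse 1. Gadd45g was at 159 and 152 FPKM in Control, 15.4 and 42.5 FPKM in Sham, and 14.7 and 7.89 FPKM in VSG mice, so that most of its distance from Control was shared with the Sham mice. Myc was at 0.793 and 0.661 FPKM in VSG and 1.45 FPKM or more in the others. Fos was at 71.6 FPKM in VSG mouse 1 and 2.72 FPKM in VSG mouse 2, next to 2.65 FPKM in Control mouse 1, and was not listed under all 3 scalings. Of 17 clock genes, Nr1d1 and Dbp were listed as higher (11.8%) and Per3 as lower (5.88%). Nr1d1, the repressor REV-ERB alpha, was at 7.88 and 6.84 FPKM in Control, 19.0 and 15.6 FPKM in Sham, and 63.3 and 22.1 FPKM in VSG mice. The hour at which each liver was taken is not given in the sources used here.

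The lists with no listed member were oxidative phosphorylation (33 tested), amino acid breakdown and urea cycle (22), male-biased genes (14), cell cycle (12) and class II antigen presentation (6), besides the marker lists named above. In the lists not yet described, 1 member was listed each. The 25 interferon-stimulated genes had Oas1g higher, the 29 complement and coagulation genes Mbl2 higher, the 8 hepatocyte markers Cebpa higher, and the 12 female-biased genes Cyp2b9 higher. The 14 heat shock genes had Bag3 lower. Mbl2, a lectin that starts complement activation, was at 338 and 306 FPKM in VSG and 82.9 to 232 FPKM in the other mice. No member of any list was called by limma.

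**Figure D4:**
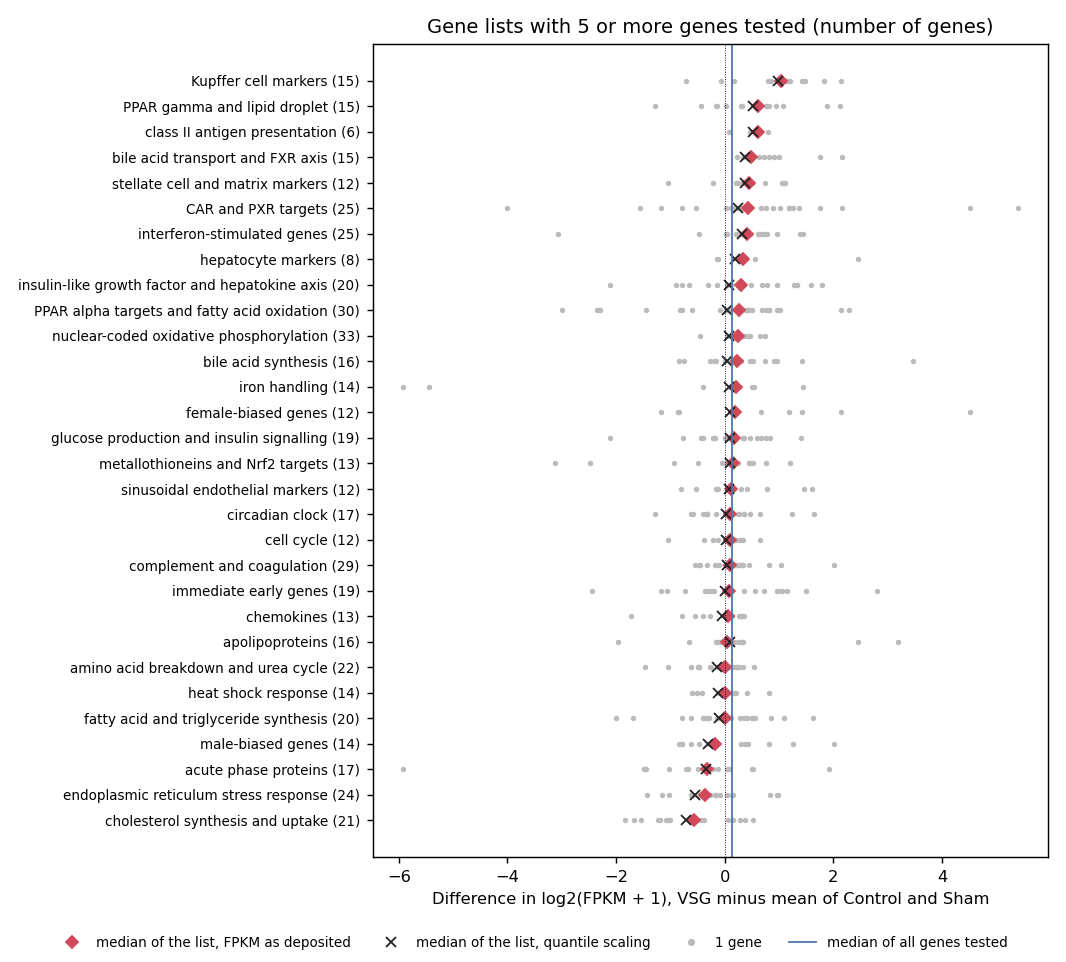
Grey dots are genes and red diamonds list medians of the difference in log2(FPKM + 1), VSG minus the mean of Control and Sham, with crosses for medians after quantile scaling and a blue line at the median of all genes (0.13). Kupffer cell markers have the highest median (1.04) and cholesterol genes the lowest (-0.57) among the lists drawn, which hold 5 or more tested genes, and without VSG mouse 2 these medians were 0.30 and 0.43.

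The other genes with wide gaps had assorted roles. Slc17a4, an organic anion transporter, was at 5.94 and 5.52 FPKM in Control, 4.48 and 2.61 FPKM in Sham, and 16.2 and 19.3 FPKM in VSG mice (difference 1.77 ± 0.24, limma adjusted p = 0.282). Alpl, the tissue-nonspecific alkaline phosphatase, was at 10.6 and 9.92 FPKM in VSG and 1.47 to 3.67 FPKM in the others. Pbld1 was at 133 and 161 FPKM in VSG and 49.4 to 67.3 FPKM in the others, and Gal3st1, a sulfotransferase of glycolipids, at 1.82 and 2.40 FPKM in VSG and 0.398 to 0.496 FPKM in the others. Within each of these genes the 2 VSG mice were closer to each other than to any other mouse. On the lower side, Naca, a subunit of the complex that meets nascent chains at the ribosome, was at 193 and 187 FPKM in Control, 199 and 151 FPKM in Sham, and 34.2 and 40.3 FPKM in VSG mice (difference -2.26 ± 0.21, limma adjusted p = 0.0926). Ngdn, a protein of ribosome biogenesis, was at 3.41 and 2.42 FPKM in VSG and 10.5 to 16.7 FPKM in the others. Urah, an enzyme of urate breakdown, was at 70.1 and 59.2 FPKM in VSG and 123 to 310 FPKM in the others. Pigg, an enzyme of membrane anchor synthesis, and Jade1, a scaffold of a histone acetyltransferase, were also lower, with mean ratios of 3.72 and 2.71. Tff1 and Gm15318, which overlap on chromosome 17, met the rule with VSG higher, but their FPKM were identical in the 2 Control mice and identical in the 2 Sham mice, so that their replicates cannot be read as separate measurements.

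**Figure D5:**
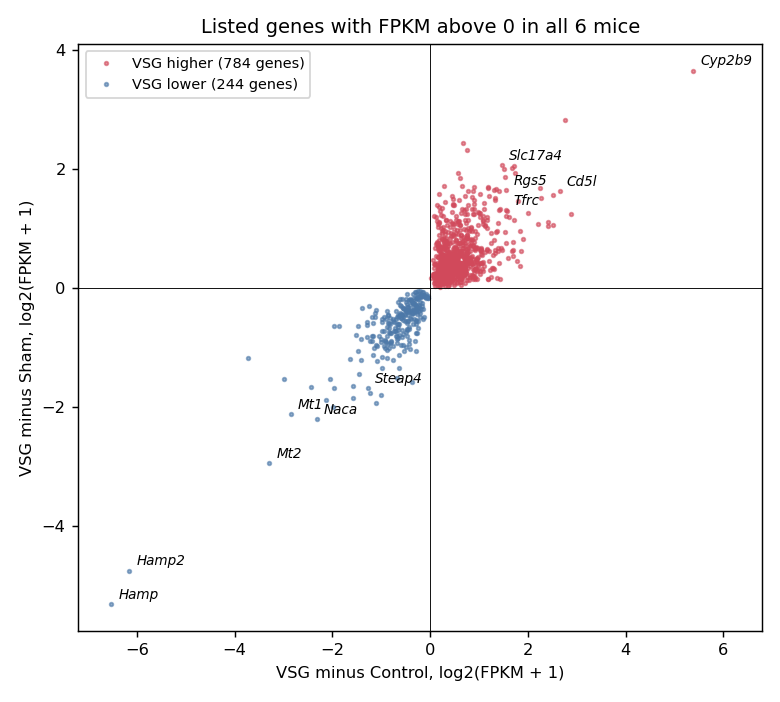
Each point is a listed gene above 0 in all 6 mice (784 higher in red, 244 lower in blue), with its log2(FPKM + 1) difference from Control on the x axis and from Sham on the y axis. The 2 axes share the VSG mice and the rule sets the quadrant, and the labelled genes Hamp and Hamp2 lie farthest on the lower side, with differences from Sham of -5.30 and -4.74.

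Of the 14 genes called by limma, 7 were listed, and all of these but Naca were at 0 in some mice. Mir1929, a microRNA gene, and Slc38a7, a glutamine transporter, were listed at 0 in all 4 Control and Sham mice and were at 35.7 and 30.2 FPKM, and at 4.78 and 6.67 FPKM, in VSG mice (adjusted p = 0.0145 and 0.0592 with limma). AF357399, Sgms2, the sphingomyelin synthase 2, and Rnpc3, a protein of the minor spliceosome, were listed at 0 in both VSG mice. Sgms2 was at 4.23 to 5.25 FPKM and Rnpc3 at 3.73 to 6.56 FPKM in the other mice (limma adjusted p = 0.0566 and 0.0421). Krcc1 was listed at 0 in both Sham mice and was at 9.98 and 15.5 FPKM in Control and 41.0 and 34.4 FPKM in VSG mice. The other 7 called genes, Snord72, Spryd4, Gm4788, Mrpl18, Snord35b, Mir6386 and Nelfcd, were not listed. Each had VSG and Sham mice on 1 side and the Control mice on the other, and 1 of these sides was listed at 0. They separated the Control mice from both high-fat groups, not VSG from the others.

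FAIRE-seq gave 1 peak list for each group, made by the authors from both mice, and so has no replicate check here. A peak lay within 1000 bp of a start site for 87.3% of 867 listed higher genes in the VSG list, 88.0% in the Sham list and 86.7% in the Control list. For 304 listed lower genes these shares were 92.1%, 92.8% and 93.1%, and for all 9507 tested genes with a position they were 90.3%, 89.2% and 89.4%. The 95% Wilson intervals for the VSG list were 84.9% to 89.4% for higher, 88.5% to 94.6% for lower and 89.7% to 90.9% for all genes. Within each direction the shares in the 3 lists lay within each other's intervals. These intervals count genes and not mice, and the same genes were scored in all 3 lists. They therefore cannot test a difference between the groups.

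The promoter window of Hamp shown above lay within a peak in the Control list (signal 0.454) and in the Sham list (0.487), and no peak of the VSG list lay within 1000 bp of its start. Of all tested genes, 44 (0.463%) had a start-site peak in both the Control and the Sham list and none in the VSG list. Of the listed lower genes, 4 (1.32%) did, namely Hamp, Snord100, Scara5 and Serpina3n, and of the listed higher genes 6 (0.692%). The windows of Mt1 and Mt2 lay within peaks of all 3 lists, with signals of 0.936 and 0.626 in Control, 1.42 and 0.902 in Sham, and 1.26 and 0.755 in VSG. Signals were not scaled between the lists, and those of the hepatocyte marker Apoa2 had the same order (0.603, 1.28 and 0.813). The signals at Hamp, Mt1 and Mt2 therefore do not rank the groups. No list had a peak at Hamp2, Cyp7a1, Rgs5 or Cyp2b9. A peak in the VSG list alone was found for 82 tested genes (0.863%), of which 7 were listed as higher, including Lrat and Sparc, and 0 as lower. These 7 are 0.807% of the listed higher genes.

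Some listed genes were neighbours. Of 5568 pairs of tested genes within 50 kb, both members were listed as higher in 64 (1.15%) and as lower in 5 (0.0898%). Of all single genes tested, 9.05% were listed as higher and 3.16% as lower. Whether neighbours were listed together more often than other pairs was not tested. The pairs with the widest gaps were Hamp2 with Hamp, 18190 bp apart, and Mt2 with Mt1, 5522 bp apart. On the higher side, Pbld2 with Pbld1, Aox1 with Aox3, Akr1c6 with Akr1c20, Tpm2 with Tln1 and Slc17a1 with Slc17a4 followed, leaving out the overlapping pair of Tff1 and Gm15318. Apart from Tpm2 with Tln1, these are pairs of related genes, among which reads of similar sequence may have been shared.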

How the data were processed

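RNA and FAIRE libraries were made from livers of 2 mice in each of 3 groups. The authors aligned 50-bp RNA reads to mm9 with TopHat2 and deposited Cufflinks FPKM for each RefSeq transcript and mouse. Per the labels RNA was poly(A)-selected, whereas the study's methods give ribosomal RNA depletion. The depth in reads is unknown, and the precision rests on 2 mice a group, which the labels do not describe beyond their group. For FAIRE the authors deposited F-seq peaks, 1 list a group, with a density signal for each peak. The authors' DESeq2 tables (log2 fold changes and p-values between groups) and their lists of variable sites (positions) were not used.

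Transcripts were given symbols by RefSeq identifier (34610 of 34933), and FPKM were summed to 24394 genes. Genes with FPKM of 1 or more in 2 or more mice (9833) were compared on log2(FPKM + 1), so that fold changes of low genes are understated. The contrast, VSG minus the mean of the Control and Sham means, was tested with limma 3.58.1 (R 4.3.3, group means of 3 groups, variance trend) with Benjamini-Hochberg adjustment at FDR 10%. The fit was tested on simulated data. Start sites came from GENCODE vM1 (NCBIM37), and motifs were searched in RefSeq promoter windows with Python 3.11.15.

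Named genes were, in each direction, the 12 with the widest gap and no FPKM of 0, the 3 with the widest gap and a 0, up to 10 called by limma, genes the study names, up to 4 listed members by gap in each of 37 gene lists, and hepatocyte markers. The members and lists were chosen with earlier results of these data known. Alternatives were another pseudocount, filter, scaling and model, single transcripts, a replicate block and leaving out each mouse. Some genes are not reported here. Mouse numbers were not taken to pair the samples.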

Additional observations from a re-analysis of the deposited data

How the results depend on the processing

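Genes with both VSG mice above all 4 others (890) and genes with both VSG mice below all 4 others (311) numbered 1546 and 484 with no filter, 573 and 160 with FPKM of 5 or more, 459 and 555 after quantile scaling, 452 and 542 after upper quartile scaling, and 64 and 43 with a gap of 0.5 or more. Leaving out 1 mouse, which loosens the rule by construction, gave 1092 to 2652 higher and 427 to 1264 lower. Genes called higher in VSG (5) and genes called lower in VSG (9) by limma were 1 and 1 with no filter, 3 and 2 with FPKM of 5 or more, 2 and 3 with Control and Sham as 1 group, 3 and 5 at FDR 5%, and 4 and 4 with a pseudocount of 0.1. They were 0 and 0 among genes above 0 in all 6 mice, an alternative chosen after seeing the data. Leaving out 1 mouse gave 0 to 6 higher and 0 to 8 lower. The cause was not tested.

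With the replicate block, limma called 0 higher and 0 lower genes. The numbers were not shown to pair the mice, as same-numbered deviations correlated at 0.113, 0.0574 and 0.0311, so this loss is not read as a weaker effect.

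Of 1332 differences of named genes under an alternative, 1320 kept their sign. The 12 others, of genes never called, came from leaving out 1 mouse, which gave -0.42 to 0.15 for Ahsg, -0.51 to 0.26 for Apoa1 (0.00462 without Sham mouse 1), -0.0101 to 0.63 for Apoa2, -0.17 to 0.70 for Cps1 (-0.11 without VSG mouse 2), -0.38 to 0.98 for Cyp2c55, -0.76 to 2.28 for Cyp3a11, -2.73 to 1.17 for Cyp3a59 (0.51 without Control mouse 2) and -1.20 to 1.91 for Hnf4a (-0.17 without VSG mouse 2). Of 466 list medians under an alternative, 70 moved by more than 1 SD. With peaks within 5000 bp, the share of listed higher genes with a start-site peak was 89.9% in Control, 91.3% in Sham and 91.0% in VSG, and of lower genes 95.7% in Control and 95.4% in Sham. With equal numbers of peaks it was 84.5% for higher genes in Sham.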
